A study of Mus musculus with 10 samples.

Results

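The gene of the macrophage mannose receptor, Mrc1, and 8 genes of the response to IL-4 and IL-13 (Il13ra1, Il4ra, Stat6, Arg1, Retnla, Chil3, Pparg and Cd163) were followed across 10 arrays of immortalized mouse macrophages. These 9 genes are a list chosen with earlier results of these data known. Each was read by the 1 probe set annotated to its symbol alone. They are 9 of 19938 genes tested on the array. The arrays fall into 4 groups. TLR9KO macrophages received β-1,3 glucan beads (n = 2) or were left unstimulated (n = 2). Wild-type B6 macrophages received the same beads (n = 3), and wild-type macrophages were left unstimulated (n = 3). The sample labels name the B6 strain for the wild-type arrays with beads alone. Stimulated cells received 20 beads per cell for 4 h, and all dishes were plated alike. The labels name 1 kind of cell per genotype and do not say whether a genotype was represented by several clones or cultures. A difference between the cells used and the loss of TLR9 cannot be told apart, and p-values reflect array-to-array spread alone. TLR9 is the endosomal receptor for unmethylated CpG DNA, and β-1,3 glucan is a fungal cell wall sugar that macrophages take up through the receptor dectin-1. No group received IL-4 or IL-13, so the values are the levels that these lines held without added cytokine.

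IL-4 and IL-13 drive macrophages toward what is called alternative activation. IL-4Rα, encoded by Il4ra, forms one receptor with the common γ chain and a second one with IL-13Rα1, encoded by Il13ra1, and both receptors activate the transcription factor STAT6. In mouse macrophages the classic STAT6-dependent genes are Arg1, Retnla, Chil3 and Mrc1, and PPARγ is a nuclear receptor that supports this state. Cd163, the haemoglobin scavenger receptor, marks many tissue macrophages and answers more to IL-10 and glucocorticoids than to IL-4.

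Values are log2 signals on the deposited scale, where 1 unit is a doubling of signal, and median signals ran between 5.75 and 6.10 over the arrays. The third wild-type array with beads stood apart: its mean correlation with its own group over all genes was 0.973, against 0.985 to 0.997 for the other 9 arrays. The line differences of the 9 genes with beads are also given without it. The Tlr9 probe set did not pass between the lines. With beads the lines overlapped, and unstimulated the TLR9KO arrays all lay above the wild-type arrays. Tlr9 read 7.31 to 7.35 with beads and 7.44 to 7.62 unstimulated on the arrays labelled TLR9KO, against 7.03 to 7.44 with beads and 6.91 to 7.32 unstimulated on the wild-type arrays. The Tlr9 difference was 0.10 ± 0.15 with beads (adjusted p = 1) and 0.37 ± 0.15 unstimulated (adjusted p = 0.244, limma). The labels do not say which stretch of Tlr9 was deleted, so this probe set does not check the genotype, and TLR9KO below is the label. Both lines carried the macrophage profile: 11 of 11 macrophage markers lay above the median signal on every array. So did 2 of 6 dendritic cell markers, 2 of 6 fibroblast markers and 1 of 8 lymphocyte markers. The summed linear signal of the macrophage markers was 24000 to 26800 with beads and 25300 to 28100 unstimulated in TLR9KO cells. In wild-type cells it was 17500 to 23800 with beads and 20400 to 21600 unstimulated. Of the 11 macrophage markers, 5 were higher and 1 was lower in unstimulated TLR9KO cells by limma at an adjusted p under 0.05. Over all genes, 3.79% were higher and 4.46% lower. With beads 4 macrophage markers were higher and 1 was lower, beside 3.82% and 3.40% of all genes. Lists for dendritic cells, granulocytes, mast cells with basophils and eosinophils, lymphocytes and fibroblasts held 0 genes that passed. Their summed signals overlapped between the lines, for example 199 to 229 with beads and 210 to 221 unstimulated in TLR9KO cells for the mast cell list, against 192 to 244 with beads and 195 to 221 unstimulated in wild-type cells. The part of these differences in the results below was not tested. In these bulk samples, fewer cells that hold a transcript and less of it per cell cannot be told apart.

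Between the lines the 9 genes differed in both directions. In unstimulated cells 5 of 9 passed at an adjusted p under 0.05 in limma, 4 lower and 1 higher in TLR9KO cells, where 8.25% of all 19938 genes passed (4.46% lower and 3.79% higher). With beads, the same counts, 4 lower and 1 higher, stood against 7.22% of all genes (3.40% lower and 3.82% higher). The genes that were lower were Mrc1, Il13ra1, Il4ra and Arg1, and the gene that was higher was Pparg, in both comparisons. Stat6, Retnla, Chil3 and Cd163 did not pass in either. The median difference over the 9 genes was −0.02 unstimulated and −0.14 with beads, beside 0.02 and −0.01 over all genes. Without the wild-type bead array that stood apart, 5 of 9 passed in both comparisons. Calls over all 19938 genes then rose from 1645 to 3668 unstimulated and from 1439 to 4171 with beads. The unchanged member count therefore does not set these genes apart. With beads the differences were then −4.02 for Mrc1, −3.62 for Il13ra1, −0.45 for Il4ra, −1.65 for Arg1 and 1.23 for Pparg, with adjusted p of at most 0.00661, and Stat6 turned to −0.07 (adjusted p = 0.63), Retnla was 0.00 (adjusted p = 0.979), Chil3 −0.24 (adjusted p = 0.137) and Cd163 0.06 (adjusted p = 0.742), none of which passed.

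**Figure D1:**
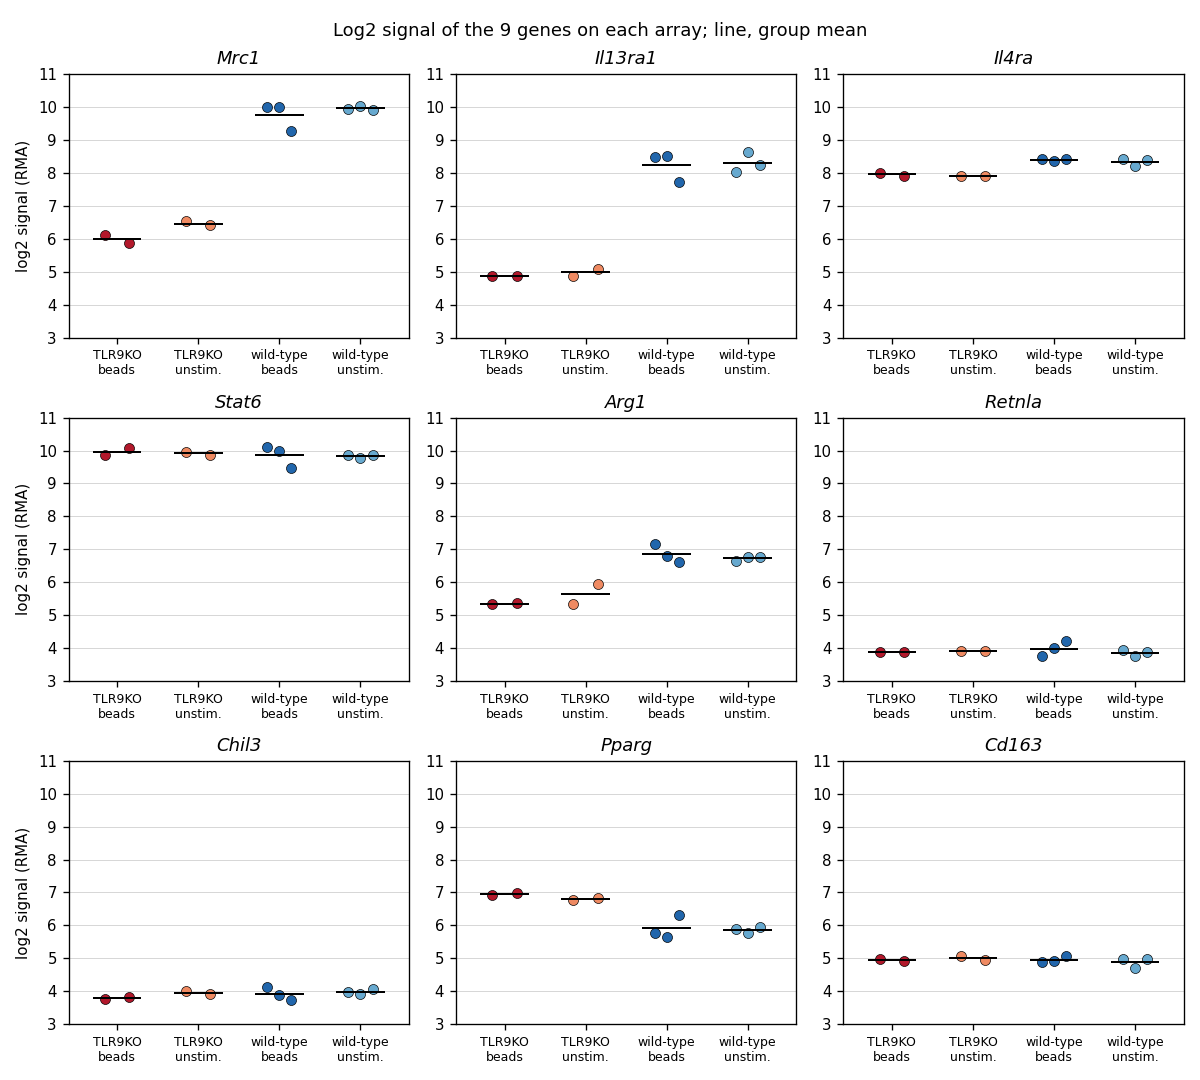
Log2 signal of each of the 9 genes on every array (points), with group means as lines. Panels are genes, and the vertical axes are log2 signal with the same range in all panels. From left to right stand TLR9KO with beads, TLR9KO unstimulated, wild-type with beads and wild-type unstimulated. Mrc1 lies between 5.89 and 6.54 on TLR9KO arrays and between 9.29 and 10.04 on wild-type arrays.

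Mrc1 encodes CD206, the C-type lectin that binds mannose, fucose and N-acetylglucosamine on microbes and host glycoproteins and carries them to endosomes. Mrc1 and Il13ra1 had the widest gaps of the 9 genes, so the 250 bases before their transcription starts are shown, from RefSeq GRCm38.p6 and written 5′ to 3′ in the direction of transcription. Mrc1 starts after chr2:14229164-14229413 on the plus strand, and Il13ra1 after chrX:36111858-36112107 on the plus strand. Capitals would mark the palindromic STAT spacings TTCNNNNGAA, the form that STAT6 prefers, and TTCNNNGAA, which read alike on both strands. Neither window holds either one.
Mrc1: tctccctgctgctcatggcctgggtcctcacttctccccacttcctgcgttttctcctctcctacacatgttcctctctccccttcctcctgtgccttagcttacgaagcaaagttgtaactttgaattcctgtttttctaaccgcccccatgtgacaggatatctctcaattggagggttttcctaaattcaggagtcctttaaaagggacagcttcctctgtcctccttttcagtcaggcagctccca
Il13ra1: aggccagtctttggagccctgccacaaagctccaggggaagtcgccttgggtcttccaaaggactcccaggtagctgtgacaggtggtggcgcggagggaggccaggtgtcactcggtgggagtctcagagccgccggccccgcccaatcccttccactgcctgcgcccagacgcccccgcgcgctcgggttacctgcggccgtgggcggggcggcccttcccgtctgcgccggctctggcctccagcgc
Over all 32851 RefSeq promoter windows of this length, 5.85% hold TTCNNNNGAA and 7.02% hold TTCNNNGAA.

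Mrc1 read 6.11 and 5.89 in TLR9KO cells with beads and 6.54 and 6.41 in unstimulated TLR9KO cells. It read 10.02, 10.02 and 9.29 in wild-type cells with beads and 9.96, 10.04 and 9.92 in unstimulated wild-type cells. All TLR9KO arrays lay far below all wild-type arrays. Percentiles here and below are taken over all 28853 probe sets of an array. Mrc1 was near the middle in TLR9KO cells, at percentiles 50.9 to 60.2. In wild-type cells it was among the brighter probe sets, at percentiles 91.6 to 93.8. The difference was −3.50 ± 0.20 in unstimulated cells (SE; 95% interval −3.96 to −3.04; adjusted p = 9.29e-06, limma), an 11.3-fold lower signal in TLR9KO cells. With beads it was −3.78 ± 0.20 (95% interval −4.24 to −3.32; adjusted p = 6.99e-06, limma), 13.7-fold lower. Among the 19938 genes, Mrc1 held rank 7 from the lowest difference unstimulated and rank 6 with beads.

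Il13ra1 encodes the chain that binds IL-13 weakly on its own and completes the IL-13 receptor together with IL-4Rα. It read 4.89 and 4.88 in TLR9KO cells with beads and 4.87 and 5.10 in unstimulated TLR9KO cells. The wild-type values were 8.49, 8.52 and 7.74 with beads and 8.05, 8.64 and 8.26 unstimulated. The lines did not overlap, and the TLR9KO values sat at percentiles 28.2 to 33.2 of their arrays. The difference was −3.33 ± 0.24 unstimulated (95% interval −3.88 to −2.78; adjusted p = 3.80e-05), a 10.1-fold lower signal, and −3.37 ± 0.24 with beads (95% interval −3.92 to −2.82; adjusted p = 3.68e-05), 10.3-fold lower. Il13ra1 ranked 10 from the lowest unstimulated and 8 with beads.

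Il4ra, which encodes the chain shared by both receptors, separated by much less. Its values were 8.0 and 7.92 in TLR9KO cells with beads and 7.91 and 7.91 in unstimulated TLR9KO cells, against 8.44, 8.37 and 8.42 in wild-type cells with beads and 8.42, 8.23 and 8.40 in unstimulated wild-type cells. Every TLR9KO value lay below every wild-type value. The difference was −0.44 ± 0.09 unstimulated (95% interval −0.65 to −0.23; adjusted p = 0.0177), 1.36-fold lower, and −0.45 ± 0.09 with beads (95% interval −0.66 to −0.24; adjusted p = 0.0175), 1.37-fold lower. This small difference did not hold its call throughout. Centring each array on its median gave −0.49 with adjusted p = 0.051 unstimulated and −0.47 with adjusted p = 0.0641 with beads. Centring on the 75th percentile gave adjusted p = 0.141 unstimulated and 0.105 with beads. Quantile scaling gave −0.37 with adjusted p = 0.134 unstimulated and −0.43 with adjusted p = 0.0831 with beads. With only the compared groups in the fit, adjusted p was 0.15 with beads. Unstimulated, the adjusted p was 0.131 without TLR9KO array 1, 0.126 without TLR9KO array 2, 0.0761 without wild-type array 1 and 0.0806 without wild-type array 3. With beads it was 0.0866 without TLR9KO array 1, 0.185 without TLR9KO array 2 and 0.0567 without wild-type array 1.

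Stat6, the transcription factor downstream of both receptors, was bright on every array. It read 9.87 and 10.07 in TLR9KO cells with beads and 9.96 and 9.87 in unstimulated TLR9KO cells, against 10.11, 9.98 and 9.48 in wild-type cells with beads and 9.87, 9.78 and 9.86 in unstimulated wild-type cells. The Stat6 difference was 0.08 ± 0.17 unstimulated (95% interval −0.30 to 0.46; adjusted p = 0.998) and 0.11 ± 0.17 with beads (95% interval −0.26 to 0.49; adjusted p = 1). Neither passed, and the intervals leave out a change of the size seen for Mrc1, Il13ra1 or Arg1.

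**Figure D2:**
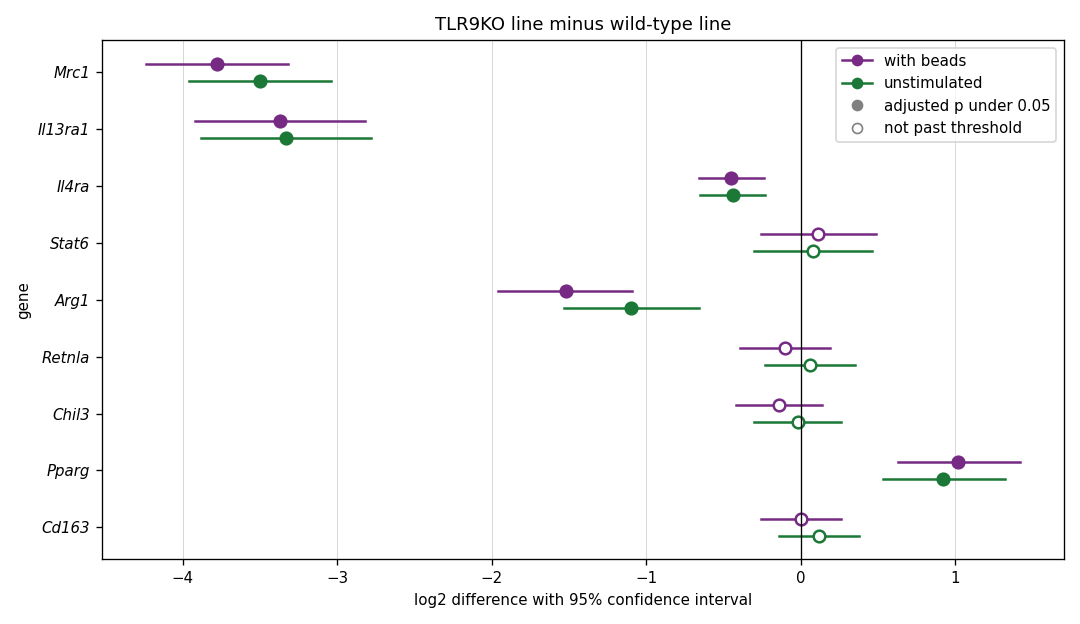
TLR9KO minus wild-type difference in log2 signal for each of the 9 genes, with 95% intervals; purple marks cells with beads and green marks unstimulated cells, and filled points have a limma adjusted p under 0.05 over 19938 genes. Mrc1 and Il13ra1 lie below −3, Arg1 between −1.52 and −1.10, Il4ra near −0.45 and Pparg at 0.92 and 1.02.

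Arg1 encodes arginase 1, which turns arginine into ornithine and urea and is the enzyme most used as a readout of IL-4 in mouse macrophages. It read 5.33 and 5.36 in TLR9KO cells with beads and 5.34 and 5.93 in unstimulated TLR9KO cells. In wild-type cells it read 7.17, 6.81 and 6.62 with beads and 6.64, 6.77 and 6.78 unstimulated. The lines did not overlap, although TLR9KO unstimulated array 2 stood above the other TLR9KO arrays. The difference was −1.10 ± 0.19 unstimulated (95% interval −1.53 to −0.66; adjusted p = 0.0071), 2.14-fold lower. Without TLR9KO unstimulated array 1 it was −0.80 with adjusted p = 0.0772. With beads the difference was −1.52 ± 0.19 (95% interval −1.96 to −1.09; adjusted p = 0.0011), 2.88-fold lower.

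Retnla (RELMα, a secreted cysteine-rich protein) and Chil3 (Ym1, a secreted chitinase-like protein) are the other classic IL-4 markers, and both read close to the floor of the array. Of the 8 members with a promoter entry, these alone held a STAT spacing in the 250 bases before the start, so their windows are shown with the spacing in capitals. The Retnla window is chr16:48842359-48842608 on the plus strand, with TTCACAAGAA 145 to 136 bases before the start. The Chil3 window is chr3:106167565-106167814 on the minus strand, with TTCTTAGAA 172 to 164 bases before the start. A match of these letters is a description and not a bound site.
Retnla: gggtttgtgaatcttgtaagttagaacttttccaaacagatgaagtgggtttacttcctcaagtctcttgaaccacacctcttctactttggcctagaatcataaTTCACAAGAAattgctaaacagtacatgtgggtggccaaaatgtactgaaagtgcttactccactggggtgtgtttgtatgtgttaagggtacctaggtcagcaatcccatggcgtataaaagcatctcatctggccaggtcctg
Chil3: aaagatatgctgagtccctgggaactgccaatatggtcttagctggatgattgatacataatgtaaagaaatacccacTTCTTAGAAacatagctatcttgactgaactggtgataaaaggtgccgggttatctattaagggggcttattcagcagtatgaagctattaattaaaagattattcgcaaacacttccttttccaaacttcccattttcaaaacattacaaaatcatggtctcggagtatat
Retnla read 3.88 and 3.89 in TLR9KO cells with beads and 3.92 and 3.92 in unstimulated TLR9KO cells, against 3.75, 4.00 and 4.20 in wild-type cells with beads and 3.94, 3.76 and 3.88 in unstimulated wild-type cells. Chil3 read 3.75 and 3.81 in TLR9KO cells with beads and 4.00 and 3.92 in unstimulated TLR9KO cells, against 4.14, 3.89 and 3.73 in wild-type cells with beads and 3.97, 3.91 and 4.06 in unstimulated wild-type cells. The lines overlapped for both, at percentiles 3.2 to 12.7 of the arrays. Retnla differed by 0.06 ± 0.13 unstimulated (adjusted p = 0.998) and by −0.10 ± 0.13 with beads (adjusted p = 1). Chil3 differed by −0.02 ± 0.12 unstimulated (adjusted p = 0.998) and by −0.14 ± 0.12 with beads (adjusted p = 0.857). At signals this low, a real difference between the lines need not show on the array, and probes for Chil3 may also read its close copy Chil4.

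Pparg was the 1 member that was higher in TLR9KO cells. PPARγ binds fatty acids and their derivatives and turns on genes of lipid uptake and storage. It read 6.91 and 6.97 in TLR9KO cells with beads and 6.76 and 6.82 in unstimulated TLR9KO cells, against 5.77, 5.65 and 6.32 in wild-type cells with beads and 5.88, 5.78 and 5.94 in unstimulated wild-type cells. All TLR9KO values lay above all wild-type values, with the nearest wild-type value on the array that stood apart. The difference was 0.92 ± 0.18 unstimulated (95% interval 0.53 to 1.32; adjusted p = 0.0109), 1.89-fold higher, and 1.02 ± 0.18 with beads (95% interval 0.63 to 1.42; adjusted p = 0.00662), 2.03-fold higher. The call was lost when a TLR9KO array was left out. Unstimulated, it was 0.95 with adjusted p = 0.081 without array 1 and 0.89 with adjusted p = 0.0998 without array 2. With beads it was 1.06 with adjusted p = 0.0531 without array 1 and 0.99 with adjusted p = 0.076 without array 2.

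Cd163 read 4.99 and 4.93 in TLR9KO cells with beads and 5.07 and 4.95 in unstimulated TLR9KO cells, against 4.89, 4.91 and 5.08 in wild-type cells with beads and 4.98, 4.70 and 4.98 in unstimulated wild-type cells. The lines overlapped, at percentiles 27.6 to 34.3, a low signal at which a real difference need not show. The Cd163 difference was 0.12 ± 0.12 unstimulated (95% interval −0.14 to 0.38; adjusted p = 0.855) and 0.00 ± 0.12 with beads (95% interval −0.26 to 0.26; adjusted p = 1).

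For Mrc1, Il13ra1, Il4ra and Arg1 both TLR9KO groups lay under both wild-type groups, and for Pparg both lay over them. The comparison of unstimulated TLR9KO cells with wild-type cells with beads gave adjusted p = 1.46e-05 for Mrc1, 4.69e-05 for Il13ra1, 0.00995 for Il4ra, 0.00375 for Arg1 and 0.0147 for Pparg in limma. TLR9KO cells with beads against unstimulated wild-type cells gave 5.15e-06 for Mrc1, 3.05e-05 for Il13ra1, 0.0325 for Il4ra, 0.00186 for Arg1 and 0.00486 for Pparg. Within a line, the neighbouring groups with and without beads did not pass for any of the 9 genes. For Stat6, Retnla, Chil3 and Cd163 no pair of groups passed.

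Beads for 4 h moved none of the 9 genes past the threshold. In TLR9KO cells 0 of 9 passed and in wild-type cells 0 of 9 passed, with 0% of all 19938 genes called by limma in each. At an unadjusted p under 0.05 there were again 0 of 9 members in each line, beside 359 genes in TLR9KO cells and 167 in wild-type cells. Differences ran from −0.48 to 0.15 in TLR9KO cells and from −0.20 to 0.14 in wild-type cells. The lowest was Mrc1 in TLR9KO cells, where both bead arrays lay below both unstimulated arrays (−0.48 ± 0.22; 95% interval −0.98 to 0.03; unadjusted p = 0.0606; adjusted p = 1). With 2 arrays a group this was not particular to Mrc1. Both bead arrays also lay below for Retnla and Chil3, and above for Il4ra and Pparg. In wild-type cells Mrc1 differed by −0.20 ± 0.18 (95% interval −0.61 to 0.21). Arg1 differed by −0.29 ± 0.21 in TLR9KO cells and by 0.14 ± 0.17 in wild-type cells. In TLR9KO cells the Arg1 value rested on the 2 unstimulated arrays, which differed from each other: it was −0.58 without array 1 and 0.00 without array 2 of that group.

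The test of whether the bead response differed between the lines also called 0 of 9 members and 0% of all genes, with 0 members and 172 genes at an unadjusted p under 0.05. Its widest member was Arg1, at −0.43 ± 0.27 (95% interval −1.04 to 0.18; unadjusted p = 0.147), followed by Mrc1 at −0.28 ± 0.29. Both moved when 1 array was left out, Arg1 between −0.72 (without TLR9KO unstimulated array 1) and −0.14 (without TLR9KO unstimulated array 2) and Mrc1 between −0.52 (without wild-type bead array 3) and −0.16 (without wild-type bead array 1 or 2), so their order is not settled. Array 3 of the wild-type cells with beads bears on these values. Against the mean of arrays 1 and 2 of its group, Mrc1 was −0.73 on array 3 and Il13ra1 −0.76, where genes of similar signal had medians of −0.41 and −0.44. Pparg was 0.61 higher on array 3, where genes of similar signal had a median of 0.48.

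Without that array, 0 of 9 members passed for the bead response in either line or for the difference of responses by limma, while 17 of all genes passed for the bead response in TLR9KO cells. In wild-type cells several signs turned, with 0.05 for Mrc1 (adjusted p = 0.831) and 0.19 for Il13ra1 (adjusted p = 0.597), −0.15 for Pparg (adjusted p = 0.485) and 0.03 for Chil3 (adjusted p = 0.883). The differences of bead responses were then −0.55 for Arg1, −0.52 for Mrc1, −0.29 for Il13ra1 and 0.31 for Pparg, with adjusted p from 0.64 for Mrc1 to 0.928 for the others. Weighting each array by its fit gave 3 members a call in wild-type cells, Il13ra1 at 0.27 (adjusted p = 0.00831), Stat6 at 0.13 (adjusted p = 0.039) and Pparg at −0.25 (adjusted p = 0.00203). In that fit the weights ran from 0.07 for wild-type bead array 3 to 12.14 for wild-type bead array 2 and their estimate did not converge, and 9174 genes were called.

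**Figure D3:**
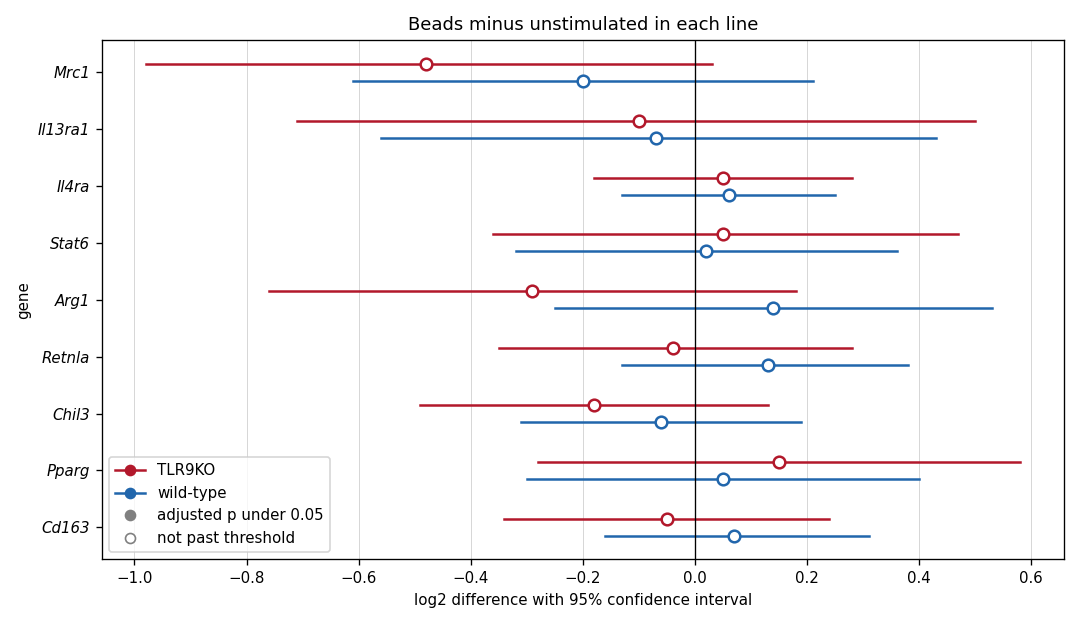
Beads minus unstimulated difference in log2 signal for each of the 9 genes, with 95% intervals, in TLR9KO cells (red) and wild-type cells (blue). All points are open, since none had a limma adjusted p under 0.05, and they lie between −0.48 and 0.15.

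The other genes of the pathway were described through 7 lists with 100 of 112 genes measured (4 others lie only on shared probe sets and 8 carry no name in the annotation). Of these, 30 passed between the unstimulated lines, 14 higher and 16 lower in TLR9KO cells, or 30.0% beside 8.25% of all genes. With beads 24 passed, 13 higher and 11 lower, or 24.0% beside 7.22%. The lists were written with earlier results of these data known. Their shares therefore cannot show that the pathway differed more than other genes, and the same holds for each list below. Of all genes, 3.79% were higher and 4.46% lower unstimulated, and 3.82% and 3.40% with beads. After centring on the array median the split with beads was 6 higher and 9 lower. The median difference over the 100 genes was 0.06 unstimulated and 0.03 with beads. Of 16 named pathway genes that passed with beads, 16 passed without wild-type bead array 3, with adjusted p of at most 0.00674. These genes were named for their large differences, and calls over all genes rose from 1439 to 4171 without that array. None of the 100 passed for the bead response in either line, where 0% of all genes passed.

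Of the cytokines and remaining receptor chains, 8 were measured and 0 passed in either comparison of the lines by limma. Several read low, and they are named here for their signal, outside the rule. Il13ra2 lay at percentiles 2.8 to 5.4, Tslp at 3.2 to 6.7 and Il33 at 23.3 to 27.7, against 76.7 to 84.8 for Crlf2. At low signals a real difference need not show. Of 15 kinases, STAT proteins and regulators, 2 were higher and 0 lower unstimulated, and 2 were higher and 2 lower with beads. Tyk2, a Janus kinase that docks on the receptor chains, was higher by 0.49 ± 0.10 unstimulated and 0.62 ± 0.10 with beads in TLR9KO cells. Socs2, a feedback inhibitor of cytokine signals, was higher by 0.44 ± 0.10 unstimulated and 0.55 ± 0.10 with beads. Stat5b, a STAT protein of the growth hormone and IL-2 families of receptors, was lower with beads (−0.76 ± 0.18; adjusted p = 0.0378). These calls were fragile: adjusted p reached 0.21 for Tyk2 and 0.204 for Socs2 unstimulated, and 0.276 for Stat5b with beads, under one of the alternatives.

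Among 22 other genes that IL-4 induces in macrophages, 3 were higher and 5 lower in unstimulated TLR9KO cells, and 3 were higher and 3 lower with beads. Fcgr2b, the inhibitory Fcγ receptor, averaged 8.71 ± 0.05 with beads and 8.51 ± 0.04 unstimulated in TLR9KO cells (SD, n = 2 each), against 11.43 ± 0.06 with beads and 11.48 ± 0.09 unstimulated in wild-type cells (SD, n = 3 each). That is 6.6-fold lower with beads (adjusted p = 4.76e-07) and 7.83-fold lower unstimulated (adjusted p = 2.72e-07). Ccl24, the eosinophil chemokine eotaxin-2, was lower too, with differences of −1.51 ± 0.13 with beads and −1.20 ± 0.13 unstimulated. Klf4, a transcription factor that works with STAT6, went the other way, at 1.26 ± 0.13 with beads and 1.27 ± 0.13 unstimulated. Genes of this list therefore stood on both sides of 0.

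Of 10 genes of arginine metabolism, 3 were lower in unstimulated TLR9KO cells and 1 with beads, beside 4.46% and 3.40% of all genes. In both comparisons 0 were higher. The median difference over the list was −0.06 unstimulated and −0.02 with beads. Slc7a2, the cationic amino acid carrier CAT2 that supplies arginine to macrophages, differed by −1.27 ± 0.11 with beads (2.42-fold lower; adjusted p = 1.30e-04) and by −1.23 ± 0.11 unstimulated (2.35-fold lower; adjusted p = 1.47e-04). Srm, spermidine synthase, was lower by limma unstimulated (−0.76 ± 0.14; adjusted p = 0.0102), as was the carrier Slc7a1 (−0.75 ± 0.13; adjusted p = 0.00675). Over the alternatives the adjusted p rose to at most 0.117 for Srm and 0.0907 for Slc7a1.

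The 18 measured partners and lipid targets of PPARγ split as well, with 5 higher and 3 lower unstimulated and 4 higher and 2 lower with beads. Rxra, the partner with which PPARγ binds DNA, was 3.95-fold lower with beads (−1.98 ± 0.16; adjusted p = 7.44e-05) and 4.15-fold lower unstimulated (−2.05 ± 0.16; adjusted p = 5.59e-05) in TLR9KO cells, opposite to Pparg. Plin2, which coats lipid droplets, was higher by 1.42 ± 0.09 with beads and 1.73 ± 0.09 unstimulated. Fabp5, a carrier of fatty acids in the cytosol, differed by −1.38 ± 0.16 with beads and −1.32 ± 0.16 unstimulated.

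In the list of mannose receptor relatives and scavenger receptors, 16 were measured, with 3 higher and 0 lower with beads and 3 higher and 2 lower unstimulated. Cxcl16, a membrane chemokine that also takes up oxidized lipoprotein, was 10.5-fold higher in TLR9KO cells with beads (3.39 ± 0.24; adjusted p = 3.20e-05) and unstimulated (3.39 ± 0.24; adjusted p = 3.03e-05). Msr1, the class A scavenger receptor, was higher by 1.47 ± 0.32 with beads (adjusted p = 0.0226) and 1.40 ± 0.32 unstimulated (adjusted p = 0.0261), with adjusted p up to 0.215 and 0.221 over the alternatives. Stab1, a scavenger receptor of tissue macrophages, passed with beads (0.57 ± 0.13; adjusted p = 0.0313), and Folr2, a folate receptor, passed unstimulated (0.56 ± 0.14; adjusted p = 0.0421). Both lost the call often, with adjusted p up to 0.334 for Stab1 and 0.367 for Folr2. The 3 closest relatives of the mannose receptor, named outside the rule after their values were seen, did not pass. Mrc2 differed by −0.04 with beads and 0.02 unstimulated, Ly75 by 0.05 and −0.07, and Pla2r1 by −0.10 and 0.07. Ly75 and Pla2r1 read low, at percentiles 30.2 to 36.6 and 26.1 to 39.5, so a real difference in them need not show. Mrc2 lay at percentiles 53.4 to 59.

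Cd163 itself did not pass, at a low signal where a real difference need not show. Genes of the surrounding list of IL-10 receptor, MAF and haem handling did pass. Of 11 measured, 3 were lower and 1 was higher in TLR9KO cells in both comparisons. Maf, a transcription factor of IL-10-producing macrophages, averaged 6.81 ± 0.25 with beads and 7.67 ± 0.24 unstimulated in TLR9KO cells (SD, n = 2 each). In wild-type cells it averaged 9.86 ± 0.04 with beads and 9.96 ± 0.10 unstimulated (SD, n = 3 each). It was 8.32-fold lower with beads (adjusted p = 2.37e-06) and 4.89-fold lower unstimulated (adjusted p = 1.10e-05). Hmox1, which breaks down haem, differed by −0.84 ± 0.10 with beads and −1.22 ± 0.10 unstimulated, and the iron exporter Slc40a1 by −1.54 ± 0.22 and −1.19 ± 0.22. The Slc40a1 adjusted p rose to at most 0.0601 with beads and 0.093 unstimulated over the alternatives.

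**Figure D4:**
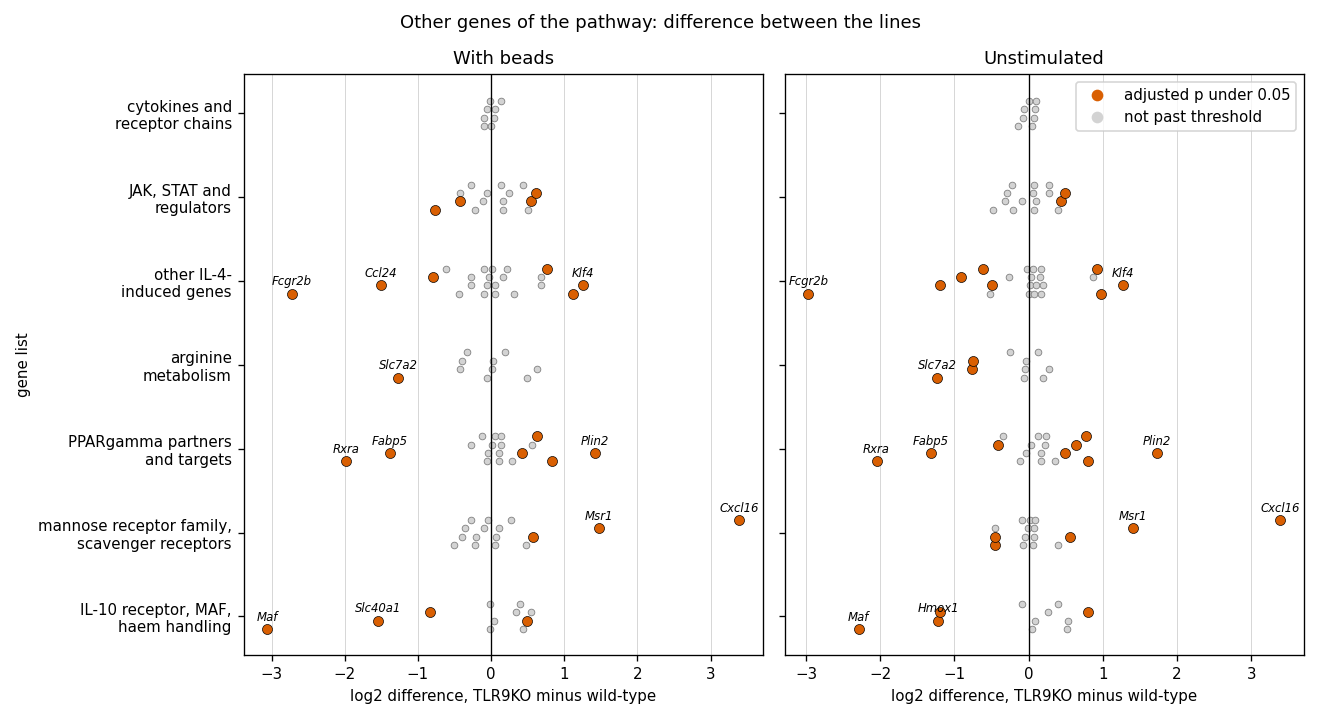
TLR9KO minus wild-type difference in log2 signal for each measured gene of the 7 pathway lists, with beads in one panel and unstimulated in the other; orange points have a limma adjusted p under 0.05. Genes of most lists lie on both sides of 0, from Maf at −3.06 with beads to Cxcl16 at 3.39.

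The genes whose pattern was most like that of each passed member were ranked by Pearson's r over the 10 arrays, among 9660 genes with a mean signal at or above the median gene (predicted genes left out). These values describe arrays that fall apart by line, so r mostly reflects the gap between the lines. The most alike to Mrc1 were Trf (transferrin, r = 0.9975), Dock3 (0.9965) and Gstp1 (0.9956), and 324 genes had r over 0.95. For Il13ra1 they were Tmem267 (0.9987), Lncenc1 (0.9979) and Sort1 (0.9967), with 374 genes over 0.95. For Il4ra they were Cd5 (0.9923), Ccdc180 (0.9897) and Enkd1 (0.9788), with 92. For Arg1 they were Hsd17b4 (0.9836), Mreg (0.9811) and Siglec1 (0.979), with 117. For Pparg they were Tfcp2l1 (0.9892), Arap3 (0.9851) and Plxna4 (0.9842), with 73. Without the wild-type bead array that stood apart, the 15 values of r lay between 0.977 and 0.999 over 9 arrays, a check chosen after seeing the data. Among these genes, the gap was widest for Gstp1, at −5.30 with beads and −5.10 unstimulated.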

How the data were processed

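Total RNA (100 ng labelled per array) was measured on Affymetrix arrays. The deposited table holds log2 signals for 28853 probe sets. RMA, its version unstated, is the method that the submitters' processing notes name for it. The array medians in the table still differ, which other scalings address. RMA gives no detection call, and the number of arrays limits the precision. Of the probe sets, 21789 are annotated to 1 symbol, 1621 to several and 5443 to none, by the platform annotation table. Symbols were updated through Entrez IDs for 21698. The probe set with the highest mean stood for each of 19938 genes. Members and lists were chosen with earlier results of these data known. Named genes are the 9 members, up to 3 passed genes with the largest difference per list and comparison, and the 3 genes most like each passed member.

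limma 3.58.1 in R 4.3.3 fitted 4 group means over all arrays (lmFit, eBayes). Benjamini-Hochberg adjustment ran over 19938 genes with a threshold of 0.05, and all adjusted p-values in the text are limma's. Intervals are 95%. The code was tested on simulated data. Alternatives were trended and robust priors, other scalings, a low-signal filter, the compared groups alone, array weights, the mean over a gene's probe sets, a test of every probe set and leaving out each array. No arrays were identical. STAT spacings were searched in 250 bases before RefSeq starts; 8 of 9 members have an entry.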

Additional observations from a re-analysis of the deposited data

How the results depend on the processing

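Mrc1 and Il13ra1 passed in 20 of 20 alternatives in both comparisons of the lines, with Mrc1 differences from −3.56 to −3.44 unstimulated and −4.02 to −3.66 with beads. Arg1 passed in 19 of 20 unstimulated and 20 of 20 with beads, Pparg in 18 and 17, and Il4ra in 13 and 13. Of 33 named pathway results, 13 lost the call under at least 1 alternative and 0 reversed. No passed member of the line comparisons changed direction. The count of 5 members that passed unstimulated ranged from 2 to 5 when 1 array was left out, with 2 without TLR9KO array 1 and 3 without TLR9KO array 2. With beads it ranged from 3 to 5, with 3 without either TLR9KO array, and was 3 with only the compared groups in the fit. Array weights gave 3 members for the bead response in wild-type cells, where Il13ra1 turned to 0.27 and Pparg to −0.25. The 30 pathway genes unstimulated became 13 after median centring and ranged from 14 to 39 without 1 array (14 and 15 without TLR9KO arrays 1 and 2, 19 without wild-type array 3). The 24 with beads became 15 after median centring, 39 after quantile scaling, 11 with the compared groups alone and 53 with array weights, and ranged from 13 to 40 without 1 array (15 and 13 without TLR9KO arrays 1 and 2, 40 without wild-type array 3). For the bead response, 0 pathway genes became 52 in wild-type cells and 1 in TLR9KO cells with array weights, and 0 to 1 in TLR9KO cells without 1 array (1 without wild-type bead array 3). Over all genes, 1645 calls unstimulated became 756 after median centring, 2483 after quantile scaling, 3262 with the groups alone, 4451 with array weights and 681 to 3668 without 1 array. The 1439 with beads became 704, 2263, 480, 6083 and 597 to 4171. The cause was not tested. The filter on low signals left out Retnla, Chil3 and Cd163. No paired analysis was possible because no replicate number in the labels is shared between groups.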
